A study of Mus musculus with 12 samples.

Results

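The immediate early genes examined here are Fos, Fosb, Jun, Junb, Egr1, Egr3, Nr4a1, Klf2, Atf3 and Ier2, 10 of the 22911 genes with a symbol on the array. They were taken by name, through the RefSeq accession that the array file gives each probe. All 10 were among the 27565 genes tested (15812 with a symbol and 11753 unnamed probes), a gene being tested where 1 group or more had its probe well above background in all 3 mice. The samples are jejunum from 12 male mice, 1 mouse per array and 3 per group, on Agilent mouse arrays of a single colour. The genotypes were wild type and IAP knockout (Akp3-/-), which lacks a gene for intestinal alkaline phosphatase, and each genotype was given vehicle or IIAEK. IIAEK is a cholesterol-lowering pentapeptide named by its letters, given by mouth at 600 mg/kg body weight once daily for 14 days from 7 weeks of age. Vehicle was carboxymethylcellulose sodium salt in solution at 5 g/L. Every mouse had fasted for 8 h when the jejunum was taken, and the tissue was put straight into RNAlater, a solution that preserves RNA. The labels name no promoter or cell type for the knockout and do not say whether the wild-type mice were littermates.

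Immediate early genes are transcribed within minutes of a stimulus, without new protein synthesis, when kinase cascades act on transcription factors such as SRF, ELK1 and CREB that already sit on their promoters. Most of them encode transcription factors: Fos and Jun proteins pair to form AP-1, EGR proteins are zinc-finger factors, and NR4A1 is an orphan nuclear receptor. Their transcripts are short-lived, so that a tissue sample reports the hour around its collection, handling included, besides any standing difference between groups. In the gut they are known to respond to feeding, growth factors, bacterial products and injury, in epithelium as well as in immune, muscle and vascular cells.

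RefSeq promoter windows on GRCm38.p6 were searched for 7 of the 10 genes (Atf3, Fosb, Jun, Junb, Klf2, Fos and Nr4a1). Egr1, on a chromosome left out of the search, and Egr3 and Ier2 were not searched, so the motif counts do not cover them. Only positions -250 to -1 from the transcription start were searched. The CREB recognition half-site, TGACG or CGTCA on either strand, lay there in 6 of the 7, against 17.8% of 32851 promoter windows over the same positions. The stretches around it are shown because this motif was shared by most of the genes. Each is written 5′ to 3′ on the gene's strand, with the half-sites in capitals.
Atf3, chr1:191183334-191183355, minus strand: ctattaatagcattaCGTCAgc
Fosb, chr7:19310086-19310120, minus strand: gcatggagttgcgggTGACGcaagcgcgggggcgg
Klf2, chr8:72318812-72318840, plus strand: ctggtttgtTGACGccgtcgccataggga
Junb, chr8:84978835-84978869, minus strand: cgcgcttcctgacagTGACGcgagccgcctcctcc
Fos, chr12:85473746-85473843, plus strand: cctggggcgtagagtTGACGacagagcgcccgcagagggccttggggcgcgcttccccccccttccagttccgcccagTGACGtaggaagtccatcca
Nr4a1, chr15:101266598-101266825, plus strand: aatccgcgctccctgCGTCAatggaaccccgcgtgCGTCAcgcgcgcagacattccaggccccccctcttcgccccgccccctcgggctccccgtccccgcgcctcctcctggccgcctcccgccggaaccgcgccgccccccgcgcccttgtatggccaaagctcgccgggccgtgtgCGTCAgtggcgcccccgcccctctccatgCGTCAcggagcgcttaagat

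Nr4a1 held 4 half-sites and Fos held 2. A site for EGR proteins, GCGNGGGCG or its complement CGCCCNCGC, lay in the windows of Fosb, Klf2 and Nr4a1, 3 of 7 against 4.70% of all windows. The TATA box TATAAA, searched on the gene's strand, was found in Fos alone of the 7, against 7.59% of all windows. No window of the 7 held the whole CRE TGACGTCA (1.55% of all windows), the AP-1 site TGANTCA (6.75%) or a CArG box, the SRF motif (1.47%). Bases farther upstream or after the start were not searched, nor were the windows of Egr1, Egr3 and Ier2. These counts therefore do not show that the genes lack such sites. The full CRE contains the half-site, so these motifs overlap. The shares over all windows were not matched for base content. A match of letters is not evidence of binding, and the array does not bear on it.

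Levels below are log2 signals minus the log2 of the array's 75th percentile, so that 0 is that percentile, and a difference of 1 is a factor of 2. On this scale levels of different genes cannot be compared, since probes differ in brightness. The 75th percentile of the processed signal ran from 575 to 815 over the arrays, 59.99% to 67.1% of spots were well above background, and no spot was saturated. The targeted gene, Akp3, was well above background on 2 of 3 wild-type vehicle arrays, on 3 of 3 wild-type IIAEK arrays and on 0 of 6 knockout arrays. On the array labelled wild-type vehicle replicate 3 it read -6.42, not well above background and inside the knockout range of -7.33 to -5.96, so that Akp3 does not check the label of this array. Enterocyte and jejunum markers were well above background on all 12 arrays in 12 of 12 cases. Some arrays stood apart in genes of another tissue or gut region. Exocrine pancreas genes averaged 8.28 above their own means in wild-type IIAEK replicate 3 and 3.90 above in knockout vehicle replicate 3, in log2 units. Distal small intestine markers averaged 0.95 above their own means in knockout vehicle replicate 3 and 0.90 above in wild-type vehicle replicate 2. On the remaining arrays these markers ran from -0.49 to 0.23. The arrays lay on 2 slides. On slide 1 were the first wild-type replicate of either treatment and knockout replicates 1 and 2 of either treatment, and slide 2 had the rest. Tests are two-sided and from limma, with p-values adjusted by Benjamini-Hochberg over all genes tested, and counts at an unadjusted p under 0.05 are given besides.

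No immediate early gene passed an adjusted p of 0.05 in any of 6 comparisons: the IIAEK effect in wild type and in the knockout, the genotype difference on vehicle and on IIAEK, the interaction, and the IIAEK effect over both genotypes, the last added after the data were seen. The same was true of every other gene, 0 of 27565 (0%) in each, and what follows therefore gives sizes and spreads, with counts at an unadjusted p under 0.05 beside their share among all genes. The lowest array of all was knockout IIAEK replicate 3, where 8 of the 10 genes had their lowest level of the 12 arrays. In the knockout the 10 genes were all lower on IIAEK than on vehicle, and Nr4a1, Klf2 and Egr3 were lower on every IIAEK array than on any vehicle array.

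**Figure D1:**
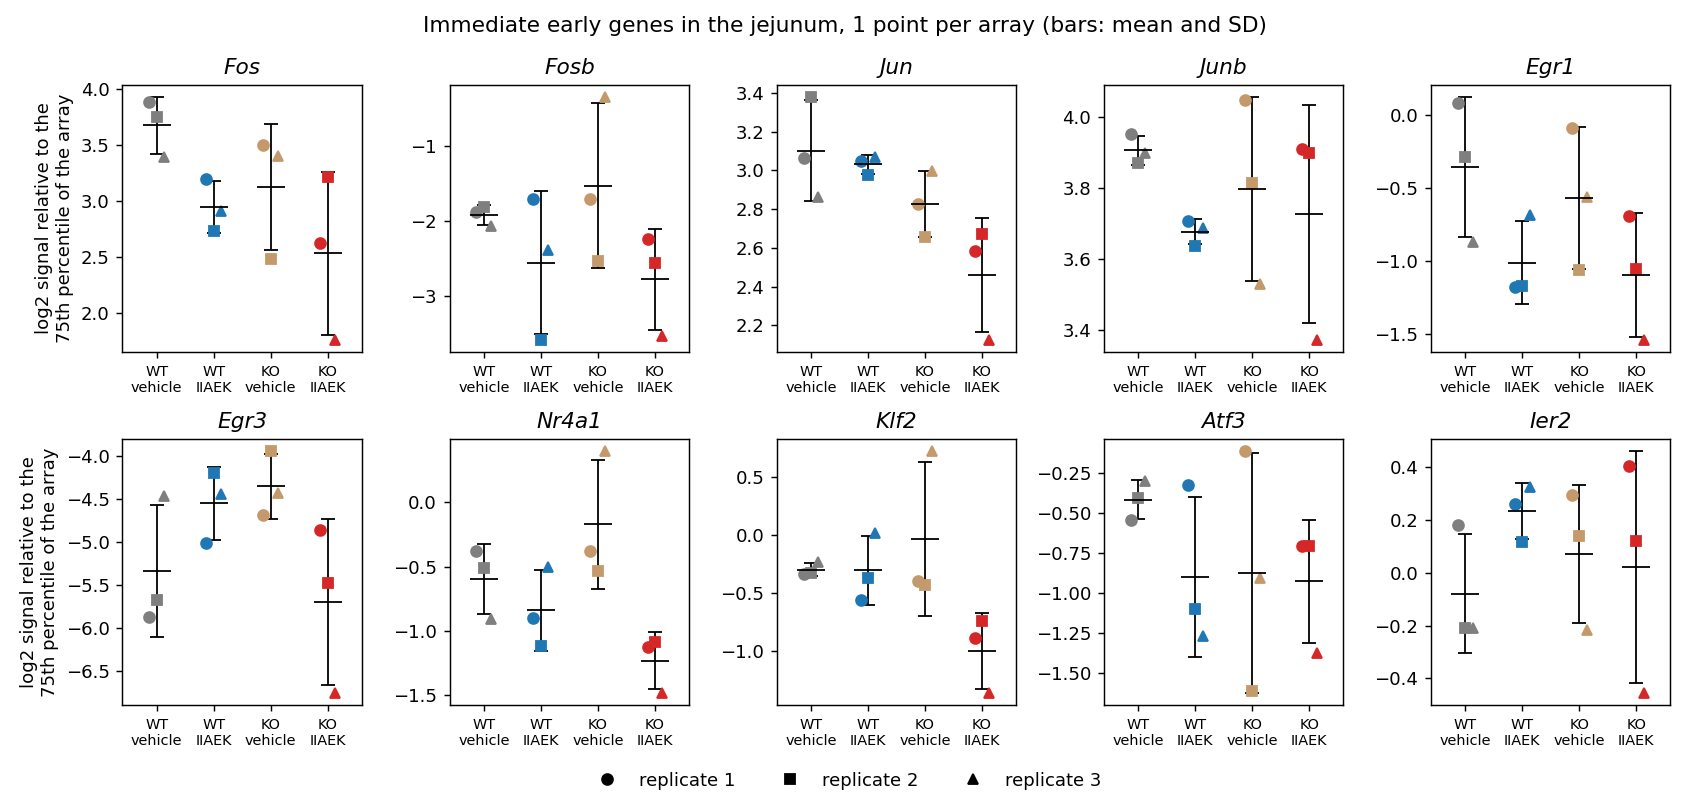
Level of each of the 10 genes on each array (log2 relative to the array's 75th percentile, 1 point per mouse, marker shape for the replicate number), with the mean and SD of each group of 3. Each panel has its own vertical axis, because levels of different probes cannot be compared. The knockout IIAEK arrays lie below all knockout vehicle arrays in the panels of Nr4a1, Klf2 and Egr3, and replicate 3 of that group is the lowest point in 8 of the 10 panels.

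Nr4a1 encodes an orphan nuclear receptor induced in many cell types, T and B cells after antigen contact among them. Its level was -0.38, -0.54 and 0.40 on the knockout vehicle arrays and -1.13, -1.08 and -1.48 on the knockout IIAEK arrays, and these groups did not overlap. In wild type it was -0.38, -0.51 and -0.90 on vehicle and -0.90, -1.12 and -0.50 on IIAEK, which overlap widely. The difference for IIAEK was -1.06 (SE 0.26, adjusted p = 0.91) in the knockout, a level 2.08-fold lower, and -0.24 (SE 0.26, adjusted p = 0.643) in wild type. Within slide 1 the knockout difference was -0.65 (2 arrays against 2), and within slide 2 it was -1.88 (1 against 1). Leaving out any single array gave -1.24 to -0.77, each at an unadjusted p under 0.05.

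Klf2 encodes a zinc-finger factor of endothelium and of resting lymphocytes, known for its response to blood flow. Knockout vehicle arrays read -0.40, -0.43 and 0.73, and knockout IIAEK arrays -0.88, -0.73 and -1.36. Only knockout vehicle replicate 3 stood clear of the wild-type arrays on the high side. Those read -0.33, -0.32 and -0.23 on vehicle and -0.56, -0.37 and 0.02 on IIAEK. The IIAEK difference was -0.96 (SE 0.29, adjusted p = 0.91) in the knockout, 1.95-fold lower, against -0.01 (SE 0.29, adjusted p = 0.993) in wild type. Without knockout vehicle replicate 3, also an array high in pancreas genes, the knockout difference was -0.58. It was -0.40 within slide 1 and -2.09 within slide 2.

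Egr3, an EGR factor that lymphocytes induce on antigen contact, was well above background on 8 of 12 arrays, and the other 9 genes on all 12, so that its low values are poorly measured. It read -5.87, -5.67 and -4.46 on wild-type vehicle, where 1 of 3 arrays was well above background, and -5.01, -4.20 and -4.44 on wild-type IIAEK, where 3 of 3 were. In the knockout it read -4.68, -3.94 and -4.43 on vehicle, all 3 detected, and -4.86, -5.47 and -6.76 on IIAEK, where 1 of 3 was. The knockout difference of -1.35 (SE 0.48, adjusted p = 0.91) and the wild-type difference of 0.78 (SE 0.48, adjusted p = 0.441) had opposite signs. Without the array labelled wild-type vehicle replicate 3 the wild-type difference was 1.22. Normexp background correction of the median signals shrank the 2 differences to -0.34 and 0.07, and without knockout IIAEK replicate 3 the knockout difference was -0.82. Both other Egr3 probes were not well above background on any array.

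Fosb, a Fos relative with a more restricted expression, ran widely between mice. Knockout vehicle arrays read -1.71, -2.53 and -0.35 and knockout IIAEK arrays -2.25, -2.56 and -3.54, with overlap. On wild type it read -1.89, -1.82 and -2.07 with vehicle and -1.70, -3.58 and -2.39 with IIAEK. The difference was -1.25 (SE 0.56, adjusted p = 0.91) in the knockout and -0.63 (SE 0.56, adjusted p = 0.579) in wild type. Without knockout vehicle replicate 3, the highest of all 12 arrays, the knockout value was -0.66, and without wild-type IIAEK replicate 2 the wild-type value was -0.12. A second Fosb probe was not well above background on any array.

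Fos is the namesake of the AP-1 Fos subunits. It was 3.89, 3.75 and 3.40 on wild-type vehicle and 3.20, 2.74 and 2.92 on wild-type IIAEK, without overlap. The knockout groups overlapped, with 3.50, 2.48 and 3.41 on vehicle and 2.63, 3.22 and 1.77 on IIAEK. The IIAEK difference was -0.73 (SE 0.35, adjusted p = 0.395) in wild type and -0.59 (SE 0.35, adjusted p = 0.91) in the knockout. Without knockout IIAEK replicate 3 the knockout value was -0.21, and over all single arrays left out it ran from -0.93 to -0.21. The wild-type value was -0.68 within slide 1 (1 array against 1) and -0.75 within slide 2 (2 against 2).

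Egr1, an EGR factor much used as a readout of MAP kinase signalling, read 0.08, -0.29 and -0.87 on wild-type vehicle and -1.17, -1.17 and -0.68 on wild-type IIAEK, an overlap by a single array on each side. In the knockout the arrays read -0.09, -1.06 and -0.56 on vehicle and -0.69, -1.06 and -1.54 on IIAEK. The IIAEK difference was -0.65 (SE 0.31, adjusted p = 0.393) in wild type and -0.52 (SE 0.31, adjusted p = 0.91) in the knockout. The knockout value was -0.28 without knockout vehicle replicate 1 and -0.30 without knockout IIAEK replicate 3.

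Jun, the AP-1 partner of Fos, was 2.83, 2.66 and 3.00 on knockout vehicle and 2.59, 2.67 and 2.13 on knockout IIAEK, groups that overlapped by 1 array at the edge. The wild-type arrays read 3.06, 3.38 and 2.86 on vehicle and 3.05, 2.98 and 3.07 on IIAEK. The IIAEK difference was -0.37 (SE 0.18, adjusted p = 0.91) in the knockout and -0.07 (SE 0.18, adjusted p = 0.857) in wild type. Without knockout IIAEK replicate 3 the knockout difference was -0.20. Jun was lower on each knockout IIAEK array than on any wild-type IIAEK array, at -0.57 (SE 0.18, adjusted p = 0.647), and it kept an unadjusted p under 0.05 with any single array left out, at -0.68 to -0.40.

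Junb, the other AP-1 Jun subunit tested, was steadiest, with an SD of 0.19 over all 12 arrays. Wild-type vehicle arrays read 3.95, 3.87 and 3.90 and wild-type IIAEK arrays 3.71, 3.64 and 3.69, a small difference without overlap of -0.23 (SE 0.17, adjusted p = 0.52). The knockout groups, at 4.05, 3.81 and 3.53 on vehicle and 3.91, 3.90 and 3.37 on IIAEK, differed by -0.07 (SE 0.17, adjusted p = 0.957). A second, dimmer Junb probe was well above background on 11 of 12 arrays and ranged from -4.89 to -3.34.

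Atf3, a stress-induced factor of the ATF family, ran from -1.61 to -0.11 and Ier2, a small nuclear protein, from -0.46 to 0.41. Atf3 read -0.55, -0.41 and -0.30 on wild-type vehicle and -0.33, -1.10 and -1.27 on wild-type IIAEK, a difference of -0.48 (SE 0.35, adjusted p = 0.509). In the knockout it was -0.11, -1.61 and -0.91 on vehicle and -0.71, -0.71 and -1.37 on IIAEK, a difference of -0.05 (SE 0.35, adjusted p = 0.986). Ier2 was 0.18, -0.21 and -0.21 on wild-type vehicle, 0.26, 0.12 and 0.32 on wild-type IIAEK, 0.29, 0.14 and -0.22 on knockout vehicle, and 0.41, 0.12 and -0.46 on knockout IIAEK. Its differences were 0.31 (SE 0.22, adjusted p = 0.494) in wild type and -0.05 (SE 0.22, adjusted p = 0.979) in the knockout. The IIAEK and vehicle groups of both genes overlapped in both genotypes.

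**Figure D2:**
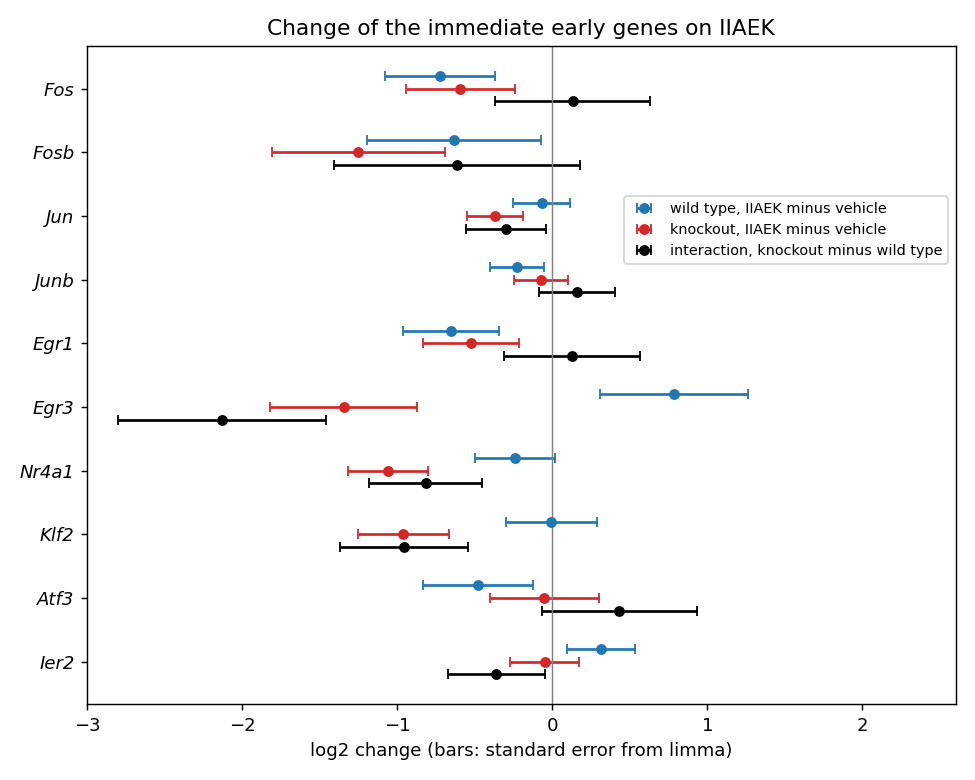
Log2 difference of IIAEK minus vehicle in wild type (blue) and in the knockout (red), and the interaction, knockout minus wild type (black), for each of the 10 genes, with the standard error from limma. All 10 red points lie at or left of -0.05, Egr3 has points on both sides of 0, and Klf2 and Nr4a1 have a black point near the red one.

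In the knockout the 10 differences were all below 0, with a median of -0.56, against 0.01 over all genes tested, of which 14102 were above and 13463 below 0. At an unadjusted p under 0.05, 4 of 10 were lower (Nr4a1, Klf2, Egr3 and Fosb), against 2.53% of all genes, and 3 were lower without overlap, against 3.5% of all genes. Over the 9 genes well above background on every array, which leaves out Egr3, the median was -0.52. Of these, 3 were lower at an unadjusted p under 0.05. Without both replicate 3 arrays of the knockout, 8 of 10 lay below 0, 1 (Nr4a1) had an unadjusted p under 0.05, the median being -0.20. With knockout vehicle replicate 1 left out, 7 of 10 lay below 0 (median -0.39), and with knockout IIAEK replicate 3 left out also 7 (median -0.26), 2 of them at an unadjusted p under 0.05. With both replicate 3 arrays left out the difference was -0.65 for Nr4a1, -0.40 for Klf2 and -0.86 for Egr3. Those are the only knockout arrays on slide 2, so this compares the same arrays as slide 1 alone and is not a separate check. With 3 arrays against 3, an exact two-sided permutation test of a single gene cannot give a p below 0.1.

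Wild-type mice showed 8 of 10 genes lower on IIAEK, with a median of -0.23 against -0.06 over all genes. None had an unadjusted p under 0.05, against 7.18% of all genes lower at that level, and 2 (Fos and Junb) were lower without overlap, against 14.7% of all genes. The 2 exceptions, Egr3 at 0.78 and Ier2 at 0.31, were higher on IIAEK with overlap between the groups. Without the array labelled wild-type vehicle replicate 3, the median was -0.31, 7 of 10 were below 0, and 1 gene was lower and 1 higher at an unadjusted p under 0.05.

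Over both genotypes, the mean of the 2 IIAEK effects was below 0 for 9 of 10 genes, with a median of -0.38 against -0.02 over all genes. It was lower at an unadjusted p under 0.05 for 5 of them, against 1.94% of all genes. Nr4a1 was -0.65 (SE 0.18, adjusted p = 0.962), Egr1 -0.59 (adjusted p = 0.962), Fos -0.66 (adjusted p = 0.962), Fosb -0.94 (adjusted p = 0.962) and Klf2 -0.48 (adjusted p = 0.962). Without both replicate 3 arrays of the knockout, 9 of 10 were still below 0 and 1 kept an unadjusted p under 0.05, Nr4a1, at -0.44. The count of 5 became 2 without wild-type vehicle replicate 1, knockout vehicle replicate 3 or knockout IIAEK replicate 3 alone, and 3 when the array left out was replicate 2 of either wild-type group or replicate 1 of knockout vehicle.

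Between genotypes the 10 genes did not lean one way on vehicle, where 5 were above and 5 below 0, with a median of 0.02. None had an unadjusted p under 0.05 there, against 11.4% of all genes in either direction. On IIAEK 9 of 10 were lower in the knockout, with a median of -0.31, and 3 had an unadjusted p under 0.05, Jun, Egr3 at -1.14 (SE 0.48, adjusted p = 0.647) and Klf2 at -0.69 (SE 0.29, adjusted p = 0.647), against 3.32% of all genes lower at that level. Without overlap, Jun and Klf2 were lower, 2 of 10 against 3.87% of all genes. Of the 9 genes well above background on every array, which leaves out Egr3, 2 had an unadjusted p under 0.05. Without both replicate 3 arrays of the knockout, 5 of 10 were below 0 and the median was -0.0012. The count of 3 became 1 when replicate 2 or replicate 3 of wild-type IIAEK, or replicate 3 of knockout IIAEK, was the array left out. The comparisons share arrays, so their counts are not independent of each other.

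The interaction asks whether the IIAEK effect differed between genotypes. It was lower in the knockout at an unadjusted p under 0.05 for Egr3, Klf2 and Nr4a1, 3 of 10 against 6.11% of all genes. Egr3 was -2.13 (SE 0.67, adjusted p = 0.31), Klf2 -0.95 (SE 0.41, adjusted p = 0.323) and Nr4a1 -0.82 (SE 0.36, adjusted p = 0.327). Fos at 0.13 (SE 0.50) and Egr1 at 0.13 (SE 0.44) had errors larger than the value itself, so that effects of either sign are within reach. The median of the 10 was -0.33 against 0.06 over all genes. The interaction was -1.72 for Egr3, -0.17 for Klf2 and -0.13 for Nr4a1 within slide 1, and -3.07, -2.20 and -1.78 within slide 2. Without both replicate 3 arrays of the knockout it was -1.64, -0.39 and -0.40. The count of 3 became 1 without any of 6 single arrays, which were wild-type vehicle replicates 2 and 3, wild-type IIAEK replicate 3, knockout vehicle replicate 3, and knockout IIAEK replicates 1 and 3. The Egr3 probe, well above background on 1 of 3 arrays in 2 of the groups, was tested only through the groups where it was higher, and its interaction was -0.41 with normexp and -1.28 with the mean of all Egr3 probes. Of the other 9 genes, 2 were lower at an unadjusted p under 0.05.

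**Figure D3:**
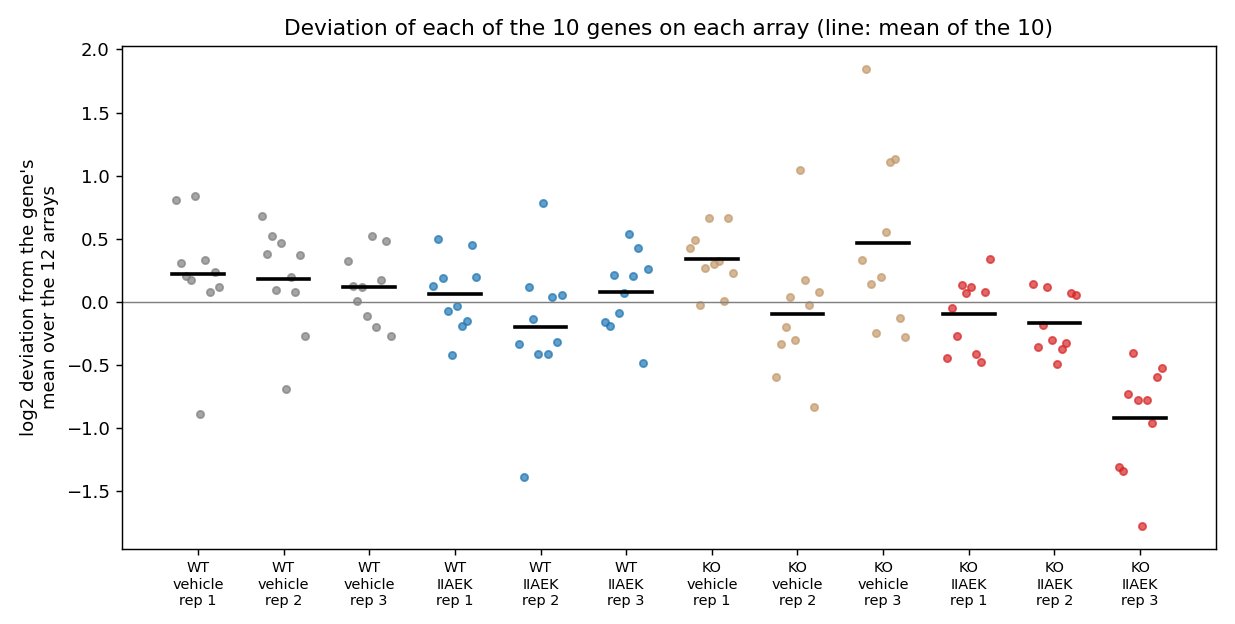
Deviation of each of the 10 genes from its own mean over the 12 arrays (log2), 1 column per array and a line at the mean of the 10. The mean deviation is lowest on knockout IIAEK replicate 3, at -0.92, and highest on knockout vehicle replicate 3, at 0.47.

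The mean deviation of the 10 genes was 0.22, 0.18 and 0.12 on wild-type vehicle, 0.06, -0.20 and 0.08 on wild-type IIAEK, 0.34, -0.09 and 0.47 on knockout vehicle, and -0.09, -0.16 and -0.92 on knockout IIAEK. Group means were 0.17 ± 0.05 (SD, n = 3), -0.02 ± 0.16, 0.24 ± 0.29 and -0.39 ± 0.46 in that order, and the difference in spread between groups was not tested. All 10 genes lay below their own mean on knockout IIAEK replicate 3. Of the 45 pairs of genes, 44 had a Pearson r above 0 over the 12 arrays, with a median of 0.45, and 0.43 after group means were removed. Part of this rested on the extreme arrays: Spearman rho was below 0 in 10 pairs, and r was below 0 in 15 pairs without the 2 arrays farthest from the median. The closest pair was Nr4a1 and Klf2 (r = 0.88, Spearman rho = 0.72, and r = 0.59 without the 2 arrays farthest from the median), followed by Fosb and Nr4a1 (r = 0.84, rho = 0.70, 0.68 without 2) and Fos and Jun (r = 0.80, rho = 0.65, 0.51 without 2). Fos and Egr1 had r = 0.79 (rho = 0.80, 0.68 without 2). These are descriptions over arrays that share scaling and slides.

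Among tested genes with a characterised symbol, the likest to the mean deviation over the 12 arrays were Zfp236 (r = 0.91, rho = 0.80), Tmem43 (r = 0.86, rho = 0.84) and Thbs1, the secreted matrix protein thrombospondin 1 (r = 0.86, rho = 0.87), and their r without the 2 farthest arrays was 0.66, 0.74 and 0.65. Tmem98, Aldh4a1, Kctd21, Gstm7, Stbd1, Gpr137 and Bmp8a followed, with r from 0.84 to 0.83. The most opposed by r were Islr2 (r = -0.84, rho = -0.53), Fcrls (r = -0.84, rho = -0.53), Mastl (r = -0.83, rho = -0.72), Rpgrip1l (r = -0.83, rho = -0.63) and Chac1 (r = -0.82, rho = -0.54). Without the 2 farthest arrays their r was -0.24, -0.15, -0.49, -0.43 and -0.31. For single genes, Fos was most like Adam1a (r = 0.89), Fosb most like Rapgef2 (r = 0.89), Jun most like Eif2ak3 (r = 0.94), and Junb most like Dnlz (r = 0.90). Egr1 was most like Fos itself (r = 0.79) and Nr4a1 most like Klf2. Klf2 was next to Plaur (r = 0.93), Atf3 to Arg1 (r = 0.88) and Ier2 to Mrps12 (r = 0.97). Egr3 was most like Icam2, Coro1a and Syk (r = 0.94 each), a vascular and leukocyte adhesion protein and 2 proteins of leukocyte signalling and motility.

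Markers of other cell types were read on the same arrays. The B cell list (10 of 11 tested; Blk was not well above background on any array) averaged -1.42, -1.64 and 1.38 from its own means on wild-type vehicle, -1.16, 1.78 and 1.06 on wild-type IIAEK, 1.17, 1.70 and 1.26 on knockout vehicle, and -1.48, -1.12 and -1.53 on knockout IIAEK. Its summed level, as log2, ranged from 1.18 to 3.43 on wild-type vehicle, 1.50 to 3.87 on wild-type IIAEK, 3.33 to 3.81 on knockout vehicle and 1.27 to 1.49 on knockout IIAEK. The knockout groups did not overlap in it. In the knockout 9 of 10 listed B cell genes were lower on IIAEK, 8 of them at an unadjusted p under 0.05, against 2.53% of all genes, and 0 passed after adjustment in limma. Egr3 followed the same division of arrays: it was between -4.68 and -3.94 on the 6 arrays where the B cell list was above 0 and between -6.76 and -4.86 on the 6 where it was below. Klf2 and Nr4a1 did not divide the arrays that way, since their wild-type vehicle arrays with low B cell markers read -0.33 and -0.32 for Klf2 and -0.38 and -0.51 for Nr4a1. The part of B cells in the differences of Egr3, Klf2 and Nr4a1 was not tested. In whole tissue, fewer cells of a type and less RNA per cell cannot be told apart.

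**Figure D4:**
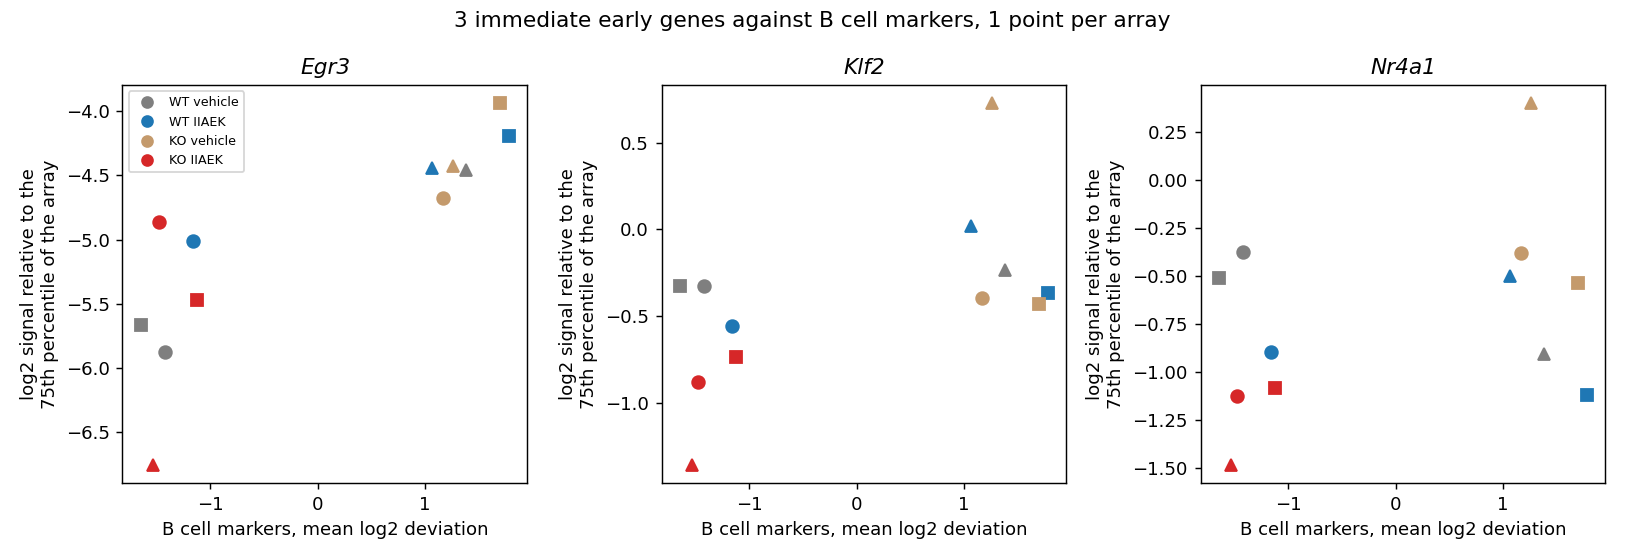
Level of Egr3, Klf2 and Nr4a1 (log2 relative to the 75th percentile, vertical) against the mean log2 deviation of the B cell markers (horizontal), 1 point per array, coloured by group. The arrays fall into 6 with low and 6 with high B cell markers, Egr3 splits with them, and the knockout IIAEK arrays all lie among the low ones.

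Endothelial markers, 11 of 11 tested and on all arrays detected, were lower on IIAEK than on vehicle in the knockout in 10 of 11 cases. Their median there was -0.39, and 1 (Plvap) was lower at an unadjusted p under 0.05 in limma, against 2.53% of all genes. Their summed level was 3.92 to 4.17 on knockout vehicle and 3.59 to 3.87 on knockout IIAEK, without overlap. On wild type it was 3.49 to 3.69 on vehicle and 3.70 to 4.25 on IIAEK, also without overlap but in the opposite direction. In wild type 10 of 11 were higher on IIAEK, with a median of 0.43, and 2 were higher at an unadjusted p under 0.05, against 5.86% of all genes. T cell markers had summed levels of 5.09 to 5.63 on knockout vehicle and 5.20 to 5.54 on knockout IIAEK. Myeloid markers ranged from 6.01 to 6.49 and 6.26 to 6.39 there, and enterocyte markers from 11.1 to 11.3 and 11.1 to 11.2. Smooth muscle markers were higher on IIAEK in 11 of 11 cases in wild type, with a median of 0.89, and at -0.003 in the knockout. Pancreas markers were well above background on all arrays in 9 of 12 cases. The correlation of the mean deviation of the 10 genes with each marker list was taken over the 12 arrays. It was 0.31 for B cells, 0.32 for endothelium, 0.48 for T cells, -0.61 for myeloid cells and 0.37 for pancreas. Without both replicate 3 arrays of the knockout these were -0.11, 0.07, -0.21, -0.25 and 0.08. For enterocytes and distal small intestine it was 0.31 and 0.46, and 0.39 and 0.32 without those arrays. For smooth muscle, fibroblasts, neurons and glia, and adipose tissue it was -0.27, -0.10, -0.27 and -0.19. Without those arrays these were -0.14, -0.25, -0.28 and 0.11. The parts of endothelium, T cells, myeloid cells, muscle, pancreas and the other lists in the differences were not tested.

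The rest of the pathway was read from lists of related genes. Of 17 other immediate early transcription factors tested (Egr4 and Fosl1 of the 19 listed were not well above background on any array), 0 passed in limma in either direction in any comparison, and 9 were below 0 on IIAEK in the knockout, with a median of -0.03. At an unadjusted p under 0.05, 1 was lower there, Egr2, a relative of Egr1 and Egr3, at -0.71 (SE 0.32, adjusted p = 0.91). In wild type Nfil3, a bZIP repressor linked to the circadian clock and immunity, was higher on IIAEK at 1.73 (SE 0.41, adjusted p = 0.369), and Klf6, a zinc-finger factor, lower at -0.44 (adjusted p = 0.369).

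Of 21 other immediate early genes that do not encode transcription factors, 16 were below 0 on IIAEK in the knockout, with a median of -0.17, and 14 in wild type, with a median of -0.12. None passed in limma. The 3 with an unadjusted p under 0.05 in the knockout were Arc, which trims synaptic receptors and is also found in dendritic cells, at -0.78 (adjusted p = 0.91), Gadd45b, a stress-induced growth regulator, at -0.61 (adjusted p = 0.91), and Ccn2, a matrix protein also called CTGF, at -0.42 (adjusted p = 0.91). In wild type the smallest p was that of Ccn1, its relative, at -0.54 (adjusted p = 0.399). The mean deviation of this list over arrays ran with that of the 10 genes (r = 0.89, and 0.73 without both replicate 3 arrays of the knockout). The related lists above and below were less close. For the other immediate early transcription factors r was 0.71 (0.35 without those arrays) and for the feedback genes 0.72 (0.35). It was 0.63 (0.30) for the kinases and factors upstream, 0.36 (0.17) for the bZIP partners and 0.21 (0.13) for the chaperones.

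The feedback genes that end the response, such as the phosphatases of MAP kinases and the ZFP36 proteins that destroy AU-rich transcripts, were divided. Of 18 tested, 9 were below 0 on IIAEK in the knockout and 7 in wild type, with medians of 0.02 and 0.05. Dusp2, a phosphatase of lymphocytes, was -1.24 in the knockout (SE 0.46, adjusted p = 0.91) and Dusp1, a general one, -0.58 (adjusted p = 0.91) in the knockout and -0.51 (adjusted p = 0.48) in wild type. The kinases and factors upstream, 26 tested, had 17 below 0 in the knockout with a median of -0.06 and 12 in wild type with a median of 0.01. Among them Mef2c, a MADS factor of B cells and muscle, was -0.65 (SE 0.22, adjusted p = 0.91) and Mapk8, the kinase JNK1, 0.44 (adjusted p = 0.91) in the knockout. In wild type Elk3 was 0.40 (adjusted p = 0.369), Crem -0.55 (adjusted p = 0.369) and Creb1, the factor of the half-site above, -0.32 (adjusted p = 0.369). None of these passed the adjusted threshold, at 0.369 in wild type and 0.91 in the knockout.

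Of 13 bZIP partners tested, 5 were below 0 in the knockout and 8 in wild type, with medians of 0.07 and -0.04. Inducible heat shock chaperones, whose transcripts rise with heat and protein damage, had 4 of 10 below 0 in the knockout with a median of 0.11 and 3 of 10 in wild type with a median of 0.11. Hspb1 was 0.81 in wild type (SE 0.26, adjusted p = 0.369) and -0.17 in the knockout (adjusted p = 0.937). None of the genes of these 2 lists passed the adjusted threshold in limma. At an unadjusted p under 0.05, 1 chaperone was higher (Hspb1) and 1 lower (Hsp90aa1) in wild type, and 0 of either list in the knockout.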

How the data were processed

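The authors labelled total RNA with Cy3, per the labels' protocols. Feature Extraction 10.7.3.1 read the arrays, per the file headers, and the deposited intensity is a processed signal that is background-subtracted and detrended within each array. The authors' deposited table of log2 values was found from those values to be scaled to the 75th percentile and centred on each probe, which the labels do not state; column medians ran from -0.08 to 0.15. Its direction is that of the signal.

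From the intensities, log2 was taken and the array's 75th percentile subtracted. RefSeq accessions named 32994 of 56605 probes, and the brightest probe stood for each gene. Group means of the 12 arrays were fitted with limma 3.58.1 in R 4.3.3 (8 residual and 3.37 prior degrees of freedom), with Benjamini-Hochberg adjustment over all 27565 genes and a threshold of 0.05. The fit was tested on simulated data. The 10 genes and the lists were chosen with earlier results of these data known, so no p is given over a list. Named genes were the 10, up to 4 of smallest p in each list, and those of highest correlation; not all are printed. The labels do not say whether mice shared a litter or cage, so p-values measure the spread between these mice. A source field gives the IIAEK treatment in weeks, where titles and protocol give 14 days. Alternatives are given in the closing section. Array number limits the precision.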

Additional observations from a re-analysis of the deposited data

Results flagged for a closer look

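The IIAEK effect differed between genotypes at an unadjusted p under 0.05, by the interaction term of limma, for 3 of the 10 genes, all lower in the knockout, against 15.1% of all genes in either direction and 6.11% lower. None passed after adjustment over all genes. The difference, knockout minus wild type, was -2.13 for Egr3 (adjusted p = 0.31), -0.95 for Klf2 (adjusted p = 0.323) and -0.82 for Nr4a1 (adjusted p = 0.327). Leaving out any single array gave -2.57 to -1.60 for Egr3 at an unadjusted p under 0.05 each time. It gave -1.15 to -0.57 for Klf2 and -0.998 to -0.53 for Nr4a1, and for both the unadjusted p passed 0.05 without some arrays. With normexp background correction Egr3, which is dim on these arrays, had an interaction of -0.41, at an unadjusted p over 0.05. Its probe passed the detection filter only through the groups where it was higher, so it is not the firmest of the 3. Of the other 9 genes, 2 were lower at an unadjusted p under 0.05.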

How the results depend on the processing

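No change of the 10 genes passed the adjusted threshold under any alternative, where the smallest adjusted p was 0.0983 (Egr3 for genotype on IIAEK, in slide 2 alone). Median changes kept their sign and stayed within the spread between mice with normexp, quantile normalization, the deposited values, no filter on dim probes and the mean of probes, except for genotype on vehicle, where the median was near 0 (0.02) and turned to -0.002 with the mean of probes and to -0.088 with slide as a block. The stricter filter, well above background on all arrays, drops Egr3 and so gives no median of the 10. Replicate numbers did not pair the arrays consistently: deviations of same-numbered arrays correlated from -0.25 to 0.35. Replicate 3 was more alike between the knockout groups (0.35, against at most -0.16 with other numbers) and less alike between the wild-type groups (-0.25 against 0.16). The replicate 3 arrays of the knockout are also the only knockout arrays on slide 2. With a replicate block 0 genes were called in each comparison and the median in the knockout stayed at -0.56. Genes called, 0 of 27565 in the main analysis, became 1 for IIAEK in wild type and 1 for genotype on IIAEK with slide as a block. With only the 2 groups compared they became 14 for IIAEK in the knockout, 1 for genotype on vehicle and 4 for genotype on IIAEK. In slide 1 alone they were 1 (IIAEK in wild type), 7 (IIAEK in the knockout) and 14 (genotype on vehicle), and in slide 2 alone 10, 19 and 11, with 40 for genotype on IIAEK, 4 for the interaction and 15 over both genotypes. Without both replicate 3 arrays of the knockout, 1 gene was called over both genotypes.

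A knockout group has 1 array on slide 2 and a wild-type group 1 on slide 1, so a lone array is assumed there to vary like the other groups, also for that smallest adjusted p. Medians of the 10 in slide 1 alone were -0.20 (IIAEK in the knockout), -0.12 (IIAEK in wild type), -0.10 (over both genotypes) and -0.082 (interaction). Of these only the knockout median moved by more than the spread between mice (SD 0.28). In slide 2 alone medians moved to -1.31 (IIAEK in the knockout), -0.68 (genotype on IIAEK), -0.83 (interaction) and -0.73 (over both genotypes). Without both replicate 3 arrays of the knockout they were -0.20 (IIAEK in the knockout), -0.0012 (genotype on IIAEK) and 0.078 (interaction). For IIAEK in the knockout this compares the same arrays as slide 1 alone. The 2 replicate 3 arrays were chosen after the data were seen, as were the 2 highest in pancreas genes.

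These changes turned sign, some of them not small (Fosb for IIAEK in wild type was -0.63 in the main analysis). For IIAEK in wild type, Klf2 was 0.00084 with quantile normalization, 0.0019 with the deposited values and 0.10 in slide 2, and in slide 1 Fosb was 0.18 and Atf3 0.22. For IIAEK in the knockout, Junb was 0.0074 with the mean of probes, and Atf3 was 0.15 and Ier2 0.047, both in slide 1 and without the replicate 3 arrays. For genotype on vehicle, slide 1 gave Fosb -0.23, Nr4a1 -0.082 and Klf2 -0.083, slide 2 gave Egr1 0.014 and Ier2 -0.0080, and Fosb was -0.19, Junb 0.024 and Klf2 -0.12 without either pair of arrays. For genotype on IIAEK, Fosb was 0.020 with the mean of probes, Junb -0.038 with the slide block and -0.29 in slide 2, and Egr1 0.30 and Ier2 0.0030 in slide 1. Without the replicate 3 arrays Fosb was 0.16, Egr1 0.14, Atf3 0.19 and Ier2 0.029 there, and without the pancreas-high arrays Egr1 was 0.077. For the interaction, Atf3 was -0.062 in slide 1, Fos -0.89 and Egr1 -0.62 in slide 2, and Fosb 0.35 without the replicate 3 arrays and 0.055 without the pancreas-high ones. Over both genotypes Egr3 was 0.0010 and Atf3 0.19 in slide 1. The cause was not tested.

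Leaving out each array in turn gave 0 to 1 genes called for IIAEK in wild type and over both genotypes, and 0 to 2 for genotype on vehicle and on IIAEK. It gave medians of -0.84 to -0.26 for IIAEK in the knockout, -0.31 to -0.11 in wild type (highest without wild-type IIAEK replicate 2), -0.52 to -0.27 over both genotypes (highest without knockout IIAEK replicate 3), -0.15 to 0.13 for genotype on vehicle, -0.53 to -0.0012 for genotype on IIAEK and -0.46 to -0.12 for the interaction (highest without knockout vehicle replicate 3). Changes that crossed 0 were Jun (-0.19 to 0.069) and Klf2 (-0.17 to 0.12) for IIAEK in wild type, and Junb (-0.20 to 0.11), Atf3 (-0.42 to 0.33) and Ier2 (-0.24 to 0.19) in the knockout. For genotype on vehicle they were Fosb (-0.19 to 0.90), Junb (-0.23 to 0.024), Egr1 (-0.47 to 0.031) and Klf2 (-0.12 to 0.46). For genotype on IIAEK they were Fosb (-0.73 to 0.21), Junb (-0.042 to 0.23), Egr1 (-0.29 to 0.14), Atf3 (-0.21 to 0.26) and Ier2 (-0.40 to 0.029), and for the interaction Fos (-0.21 to 0.52) and Egr1 (-0.12 to 0.38).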
